A study of Mus musculus with 2 samples.

Results

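The 7 genes described here encode the core of the MHC class II presentation pathway in the mouse: H2-Aa, H2-Ab1, H2-Eb1, Cd74, H2-DMa, H2-DMb1 and Ciita. They were chosen by name from 32285 annotated genes and not by a cut on measured values, but with earlier results of these data known. All 7 were detected. Their UMI counts (unique molecular identifiers, each marking 1 captured transcript) were read in 5210 cells of one single-cell library and 5820 cells of another, taken as barcodes with at least 1000 UMIs, at least 500 genes and at most 10% mitochondrial UMIs.

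Class II molecules display peptides from engulfed and endosomal proteins to CD4 T cells. An alpha chain (H2-Aa) pairs with a beta chain (H2-Ab1), and H2-Eb1 is the beta chain of the related I-E molecule. The invariant chain Cd74 holds new class II molecules in the endosomal route and blocks their groove, and H2-DMa with H2-DMb1 forms the exchange factor that trades the invariant chain remnant for peptide. Ciita, the class II transactivator, does not bind DNA itself but docks on factors at class II promoters. Dendritic cells and B cells carry class II constantly, while in microglia, the brain's own macrophages, it is known as a marker of activation.

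Both libraries were made from whole brain of APP-KI animals, mice with a knocked-in Alzheimer's disease gene, at 6 months of age. Tissue was dissociated with an adult brain enzyme kit and processed with 10x Genomics 3′ v3.1 chemistry. One library carried intact Fit2 (Fit2-WT) and the other mutated Fit2 (Fit2-Mut), which the series describes as disrupting Fit2 in macrophages. The sources used here give neither the driver of the mutation nor the number, sex or strain of the animals behind each library. With 1 library per genotype there was no test of genotype, and every interval below is an exact 95% interval that covers counting error only. Such intervals treat each UMI as independent, which makes them too narrow wherever a gene's UMIs sit in few cells.

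The libraries held 52491901 (Fit2-WT) and 63234140 (Fit2-Mut) UMIs over all barcodes, with a median of 6816.5 and 7375.5 UMIs per kept cell and 9 barcodes in common. Fitm2, the gene symbol of Fit2, had 15 UMIs in 14 of 426 microglia-like cells of Fit2-WT and was not found in any of the 448 of Fit2-Mut (0 UMIs), a count of 0 that allows up to 0.820% of cells with a UMI (exact upper bound) and does not limit the share of cells that express it. Over all cells it stood at 7.08 and 6.70 CPM (UMIs per 1000000 UMIs of the same cells). Cell types were named from marker genes after clustering without class II genes. Microglia-like cells carried a summed level of 14572 and 14966 CPM over 10 microglial markers, which were found in 98.6% and 99.1% of them.

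The stretches below show where the surface chain genes and H2-DMb1 carry the letters that class II promoters are known for. They are from RefSeq promoter windows (250 bases before to 50 after the annotated start) on GRCm38.p6, 4 of the 7 members were matched there (H2-Aa, H2-Eb1, H2-DMa and H2-DMb1), and capitals mark matches to 3 letter runs. GATTGG is the reading of the Y box that NF-Y binds, a form of the X box bound by RFX and neighbouring factors is the longer run of capitals in H2-Eb1 and H2-DMb1, and TGACGTCA is the cyclic AMP element. These letters were written down after the sequences had been seen. H2-Aa is shown on the minus strand at chr17:34287861-34287922, H2-Eb1 on the plus strand at chr17:34305757-34305818, and H2-DMb1 on the plus strand at chr17:34153088-34153115, where the stretch overlaps an annotated exon of an H2-DMb1 transcript that starts farther 5′.
H2-Aa: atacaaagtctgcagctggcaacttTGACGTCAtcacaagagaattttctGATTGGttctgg
H2-Eb1: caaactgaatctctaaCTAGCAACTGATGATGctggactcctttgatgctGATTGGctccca
H2-DMb1: gtttacCTAGTAACTGATGATGctaggc

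GATTGG began 49 bases before the start of H2-Aa, 60 before H2-Eb1, 62 before H2-DMb1 (outside the printed stretch) and 199 before H2-DMa. Searched on both strands, it was in 5292 of 32851 promoter windows (16.1%), and it contains the reverse complement of CCAAT, which was in 37.4%. That form of the X box was in 2 windows (0.00609%), those of H2-Eb1 and H2-DMb1, where it began 94 and 97 bases before the start. Its letters match these same 2 sequences, with an open base where they differ, so its rarity is no measure of specificity. Other forms of the X box were not searched for, so the search cannot show that H2-Aa lacks one. TGACGTCA was in 588 windows (1.79%) and began 74 bases before the start of H2-Aa. A match is a description of letters and not of binding.

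In the gene annotation of GRCm38, H2-Aa lies at chr17:34282744-34287823 on the minus strand. On the plus strand of chromosome 17 lie H2-Ab1 (chr17:34257689-34269419), H2-Eb1 (chr17:34305867-34316674), H2-DMa (chr17:34119541-34139101) and H2-DMb1 (chr17:34153072-34160230). Cd74 lies at chr18:60803848-60812652 and Ciita at chr16:10480059-10528418, both on the plus strand, and all 7 are annotated as protein coding.

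The surface chains were highest in dendritic-like cells (24 Fit2-WT and 19 Fit2-Mut cells), then in B cell-like and border-associated macrophage-like cells. H2-Aa stood at 7575 CPM in Fit2-WT and 9294 CPM in Fit2-Mut dendritic-like cells, and at 3591 and 3629.7 CPM in the 37 and 41 B cell-like cells. The 28 and 30 border-associated macrophage-like cells, the macrophages of the meninges and perivascular spaces, had 2129 and 1801 CPM of H2-Aa. Their cluster also passed the marker limits for 9 of 10 microglial markers, and 10 cells per library held 99.1% and 96.3% of its surface chain UMIs. H2-Aa was next in monocyte-like cells, at 679 CPM (602 to 763) in 69 Fit2-WT cells and 346 CPM (277 to 428) in 42 Fit2-Mut cells. Microglia-like cells had 364 CPM (347 to 381) in 426 Fit2-WT cells and 488 CPM (470.2 to 505) in 448 Fit2-Mut cells. The order of monocyte-like and microglia-like cells was therefore opposite in the 2 libraries, while the order of the 3 types above them was the same in both.

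Fibroblast-like cells also held H2-Aa, with 127 CPM in the 60 cells of Fit2-WT and 131 CPM in the 81 of Fit2-Mut. It had 1.61 and 3.85 CPM in endothelial-like cells, 0 UMIs in the 45 and 39 NK cell-like cells, and 0 and 28.6 CPM (11.5 to 58.9, 7 UMIs in 2 cells) in neutrophil-like cells. In free RNA, taken from barcodes with 10 to 100 UMIs, H2-Aa stood at 60.6 and 59.0 CPM. Dendritic-like, B cell-like, macrophage-like, monocyte-like, microglia-like and fibroblast-like cells were all above that level, and endothelial-like cells far below it.

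H2-Ab1 and H2-Eb1 had the same leading types. H2-Ab1 stood at 6568 and 7409 CPM in dendritic-like, 2074 and 2012 CPM in B cell-like and 1756 and 1561 CPM in border-associated macrophage-like cells of Fit2-WT and Fit2-Mut. In microglia-like cells it was 358 CPM (342 to 375) and 425 CPM (408 to 441). H2-Eb1 stood at 7355 and 8212 CPM in dendritic-like, 3314 and 3071 CPM in B cell-like and 2216 and 1719 CPM in border-associated macrophage-like cells. In microglia-like cells H2-Eb1 was 235 CPM (222 to 248) and 305 CPM (292 to 319). Neither gene stood above its own free RNA level (54.1 and 66.4 CPM for H2-Ab1, 46.7 and 59.0 CPM for H2-Eb1) in T cell-like, NK cell-like, endothelial-like or glial cells. In ependymal-like cells H2-Ab1 had 13 and 17 UMIs (11.6 and 11.7 CPM), while H2-Aa had 1 and 2 and H2-Eb1 0 and 3. These H2-Ab1 UMIs lay in 10 and 11 cells, and the H2-Ab1 levels were below that of free RNA. Free RNA held H2-Aa at 60.6 and 59.0 CPM and H2-Eb1 at 46.7 and 59.0 CPM, near its H2-Ab1. The part of free RNA in the ependymal counts was not tested.

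Cd74 followed the same order of types at higher counts. It stood at 21422 and 26636 CPM in dendritic-like, 16121 and 14468 CPM in B cell-like and 5828 and 5429 CPM in border-associated macrophage-like cells. In microglia-like cells it was 1608 CPM (1573 to 1643) in Fit2-WT and 2040.4 CPM (2005 to 2076) in Fit2-Mut. Neutrophil-like cells had 44.2 CPM in Fit2-WT and 307 CPM in Fit2-Mut, the latter from 9 of 57 cells, and the free RNA held 209 and 230 CPM (229.7). T cell-like cells had 73.9 CPM in Fit2-WT and 14.8 CPM in Fit2-Mut, both below the free RNA.

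The exchange factor genes were also counted in types with few or no surface chain UMIs, at levels mostly near or below their free RNA. H2-DMa stood at 795 and 943 CPM in dendritic-like, 447 and 412 CPM in B cell-like and 285 and 291 CPM in border-associated macrophage-like cells. In microglia-like cells it was 234 CPM (221 to 247) and 270.4 CPM (258 to 284). In T cell-like cells H2-DMa stood at 36.1 CPM (22.03 to 55.7) and 31.0 CPM (19.2 to 47.4), beside 20.7 and 28.3 CPM in free RNA, a level that the Fit2-Mut interval holds. NK cell-like cells had 32.3 CPM in Fit2-WT, from 6 UMIs, and 82.6 CPM in Fit2-Mut, from 15 UMIs, with 0 H2-Aa UMIs in either library.

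H2-DMb1 stood at 698 and 969 CPM in dendritic-like and 331 and 222 CPM in border-associated macrophage-like cells. Its level in B cell-like cells, 115 and 179 CPM, was close to that in microglia-like cells, 125 CPM (115 to 135) and 146 CPM (137 to 156). H2-DMb1 has a close copy, H2-DMb2, and reads shared between them could not be checked. H2-DMb2 had 461 and 357 CPM in B cell-like cells, 186 and 72.1 CPM in dendritic-like cells and 4.11 and 4.56 CPM in microglia-like cells. Choroid plexus-like cells had 249 and 225 H2-DMb1 UMIs, 14.9 CPM (13.1 to 16.8) and 13.6 CPM (11.9 to 15.5), in 14.7% and 12.7% of cells. In free RNA H2-DMb1 stood at 14.2 and 18.8 CPM. Cd74 in choroid plexus-like cells was 2.15 and 2.17 CPM, against 209 and 230 CPM in free RNA. Astrocyte-like cells had 0.712 and 0.167 CPM of H2-DMb1. The part of free RNA in the H2-DMb1 counts of choroid plexus-like cells was not tested.

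Ciita was the sparsest member. It stood at 156 and 149 CPM in dendritic-like cells, where 13 of 24 and 12 of 19 cells had a UMI, and at 102 and 73.3 CPM in B cell-like cells. Border-associated macrophage-like cells had 3 and 8 UMIs (11.4 and 16.4 CPM) and monocyte-like cells 10 and 3 UMIs (24.1 and 12.1 CPM). In microglia-like cells Ciita stood at 2.15 CPM (1.07 to 3.85, 11 UMIs) in Fit2-WT and at 4.89 CPM (3.30 to 6.98, 30 UMIs) in Fit2-Mut, against 2.36 and 0.793 CPM in free RNA. The microglial level therefore stood above that of free RNA in Fit2-Mut and did not in Fit2-WT. Those free RNA levels rested on only 9 and 3 UMIs, and this contrast between libraries was not tested. Ciita was found in 10 of 426 and 21 of 448 microglia-like cells. Choroid plexus-like, T cell-like and NK cell-like cells had 0 Ciita UMIs in both libraries.

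**Figure D1:**
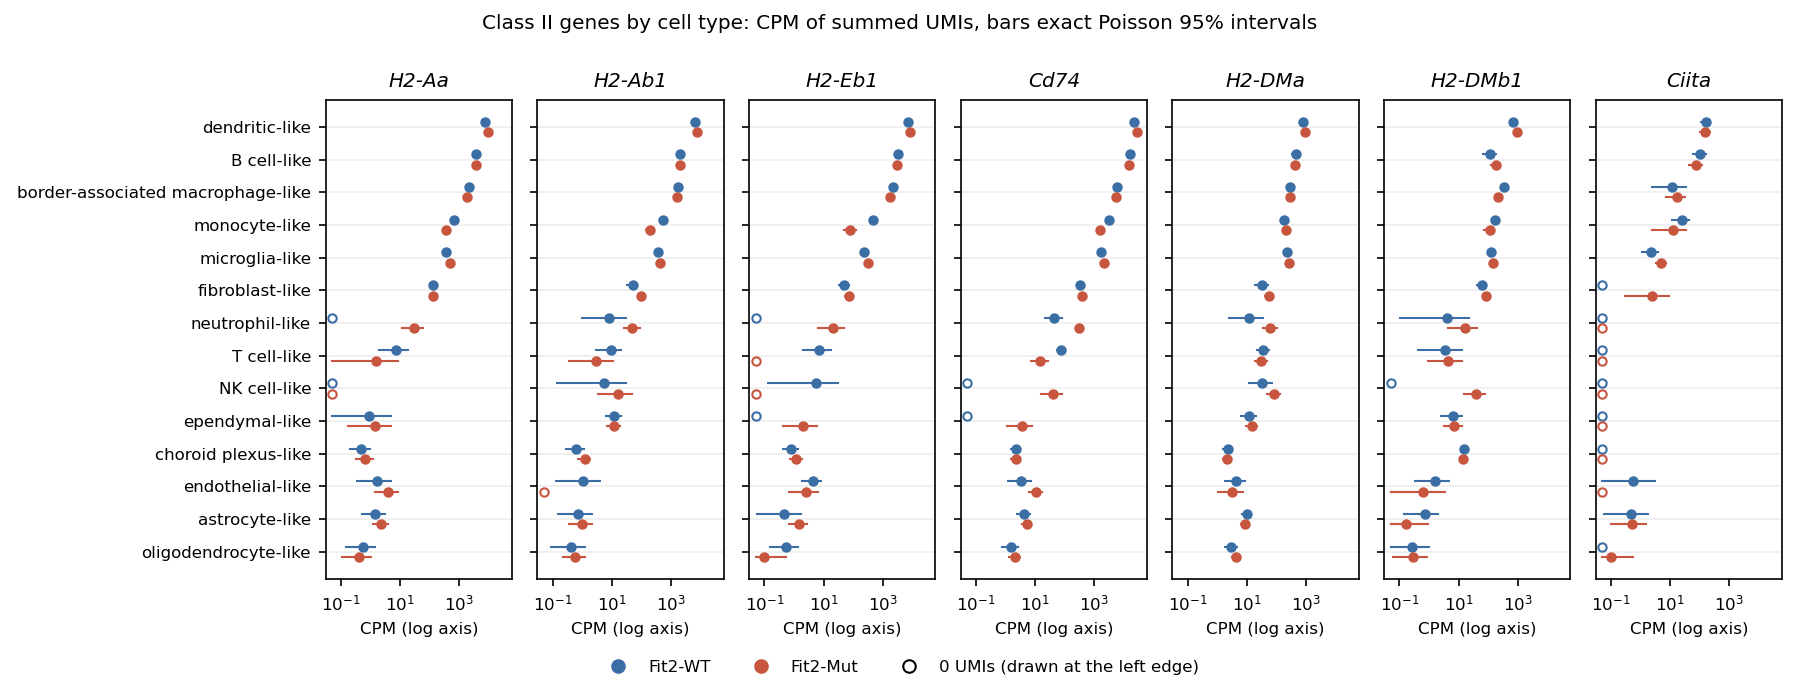
CPM of each class II gene (log axis) in each cell type, with Fit2-WT in blue, Fit2-Mut in red, bars for exact Poisson 95% intervals and open circles for 0 UMIs. Dendritic-like, B cell-like and border-associated macrophage-like cells lead in the surface chains and Cd74, monocyte-like and microglia-like cells follow, and in choroid plexus-like cells H2-DMb1 lies above Cd74, at 14.9 and 13.6 against 2.15 and 2.17 CPM, with its own free RNA level at 14.2 and 18.8 CPM.

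The genes whose levels across types were most like the mean log2 level of the 3 surface chains were compared over 34 points (17 types in each of 2 libraries, which share depth and free RNA), among 14380 genes. Dendritic-like cells, the highest in the surface chains, were left out, with 19 cells in Fit2-Mut and a minimum of 20. The highest Pearson correlations of log2(CPM + 1) outside the class II genes were those of Erp29 (0.90), an endoplasmic reticulum chaperone, Hpse (0.87), which encodes heparanase, and Kynu (0.86), an enzyme of tryptophan breakdown. Tlr1, Cd22, Slamf9 and Blnk, genes of immune receptors and of a B cell adaptor, had 0.86 each, and Tnni2 and the lysosomal enzyme gene Hexa 0.84 each. Cd180 had 0.82. Within the pathway Cd74 had 0.94, Ciita 0.90, H2-DMa 0.88 and H2-DMb1 0.87. Types differed widely in depth and number of cells, and these correlations are a description of these 34 points.

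In microglia-like cells all 7 members were higher in the Fit2-Mut library, by less than 1.5-fold except Ciita. H2-Aa had 1858 (Fit2-WT) and 2991 (Fit2-Mut) UMIs there, and the ratio of CPM, Fit2-Mut over Fit2-WT, was 1.34 (1.26 to 1.42). H2-Ab1 had 1830 and 2605 UMIs with a ratio of 1.18 (1.12 to 1.26), and H2-Eb1 1199 and 1873 UMIs with a ratio of 1.30 (1.21 to 1.40). Each of the 3 surface chains thus had a counting interval above 1. Cd74 had 8212 and 12518 UMIs and a ratio of 1.27 (1.23 to 1.30). H2-DMa had 1193 and 1659 UMIs and a ratio of 1.16 (1.07 to 1.25), and H2-DMb1 638 and 898 UMIs and a ratio of 1.17 (1.06 to 1.30). Ciita had a ratio of 2.27 (1.11 to 5.02) on its 11 and 30 UMIs.

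Their median log2 ratio was 0.34, against 0.02 over the 11713 genes with at least 20 UMIs. With a call set at 1.5-fold, 1 of 7 members was higher, Ciita, and of all genes 4.06% were called higher and 5.36% lower. The share of microglia-like cells with an H2-Aa UMI was 27.9% (23.7 to 32.5) in Fit2-WT and 34.4% (29.98 to 38.98) in Fit2-Mut, at a median of 11134.5 and 12564.5 UMIs per cell. After each cell was thinned to 1000 UMIs it was 13.1% (10.1 to 16.7) and 15.2% (11.98 to 18.8). Endothelial-like cells, which should lack the gene, had an H2-Aa UMI in 0.694% and 1.47% of cells at a median of 3902.5 and 3944 UMIs, and in 0 and 0.880% of cells after thinning. The microglial shares therefore stood above background in both libraries, and the intervals of the 2 genotypes overlapped.

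Markers of other cells in the same microglia-like cells moved with genotype too. Neutrophil markers summed to 239 CPM in Fit2-WT and 672 CPM in Fit2-Mut, with 5 and 1 of 9 at 0 UMIs. Markers of the dendritic cell type cDC2 summed to 7.83 and 30.8 CPM, with 4 and 1 of 7 at 0, and border-associated macrophage markers to 34.5 and 56.6 CPM, with 3 and 0 of 9 at 0. B cell markers were at 169.8 and 173 CPM, T cell markers at 32.7 and 33.6 CPM and monocyte markers at 15.7 and 15.8 CPM. The part of these other cells in the genotype difference was not tested as a whole. Without cells holding 2 or more UMIs of those immune markers found in under 2% of microglia-like cells, which left 415 and 420 cells, the median log2 ratio was 0.19.

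Genes that act with the members were read in the same cells. Of 7 factors of class II promoters, 0 passed 1.5-fold, with Rfx5 at 6.27 and 5.87 CPM (ratio 0.936, 0.565 to 1.56) and Rfxank at 7.83 and 10.9 CPM (1.39, 0.929 to 2.12). Of 8 genes of interferon gamma signalling and of the myeloid lineage that act upstream of Ciita, 0 passed 1.5-fold and 7 were above 1. Irf1, an interferon-induced transcription factor, stood at 64.8 and 81.5 CPM (ratio 1.26, 1.09 to 1.45). Of 13 interferon response genes, Ifit2 (1.56, 1.25 to 1.96) and Ifit1 (1.51, 0.862 to 2.70) passed 1.5-fold upward and Isg15 (0.624, 0.516 to 0.753) downward.

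Of 7 genes of endosomal processing 0 passed 1.5-fold, and Ctss, the protease that trims the invariant chain, stood at 6048 and 5967 CPM (ratio 0.987, 0.972 to 1.002). March1, the ligase that removes class II from the surface, stood at 92.4 and 126 CPM (1.36, 1.22 to 1.53). All 8 class I genes had ratios above 1 and 0 passed 1.5-fold, with H2-K1 at 666 and 843 CPM (1.27, 1.21 to 1.32) and the light chain B2m at 2407 and 2844 CPM (1.18, 1.15 to 1.21). H2-Oa and H2-Ob, which form an inhibitor of the exchange factor, had ratios of 1.18 (0.990 to 1.40) and 1.09 (0.884 to 1.36). The median log2 ratio was 0.26 for the class I genes, 0.14 for the promoter factors and 0.03 for the processing genes, each beside 0.02 for all genes.

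Genes that mark microglial states were compared between genotypes in the same way. Of 14 disease-associated genes 0 passed 1.5-fold, with a median log2 ratio of −0.03; Apoe, the lipid carrier with most counts, stood at 23124 and 18873 CPM (0.816, 0.810 to 0.823), Spp1 at 1965 and 1691 CPM (0.861, 0.837 to 0.885) and Fabp5 at 696 and 495 CPM (0.711, 0.677 to 0.747). Of 11 homeostatic genes 0 passed 1.5-fold and the median log2 ratio was 0.10. Of 4 cell cycle genes with enough counts, Cenpa (12 and 26 UMIs) and Cenpe (10 and 19 UMIs) passed 1.5-fold upward, at 1.80 (0.878 to 3.92) and 1.58 (0.6997 to 3.81).

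Microglia-like cells fell into 5 clusters, which held similar shares of both libraries but very different class II levels. Cluster 1, led by the homeostatic genes Tmem119 and P2ry12, held 29.8% and 29.9% of microglia-like cells. Cluster 2, led by Tnf, Ccl3 and Ccl4, held 28.9% and 30.1%, cluster 4, with Olfr110 and Siglech, 19.5% and 18.8%, and cluster 5, led by Gpnmb and Spp1, 16.2% and 17.6%. Cluster 14, led by Tcim and Epcam, had 24 and 16 cells. H2-Aa stood at 33.1 CPM in Fit2-WT and 63.4 CPM in Fit2-Mut in cluster 1, below or near the free RNA. It stood at 274 and 599 CPM in cluster 2, at 512 and 503 CPM in cluster 4 and at 765 and 768 CPM in cluster 5. Without thinning, the share of cells with an H2-Aa UMI ran from 3.94% and 14.9% in cluster 1 to 69.6% and 60.8% in cluster 5. It was 35.0% and 38.5% in cluster 2 and 25.3% and 38.1% in cluster 4. Median depth differed, at 6506 and 7615.5 UMIs per cell in cluster 1 and 15184 and 16004 in cluster 5. With cells thinned to 1000 UMIs the shares were 1.57% and 3.73% in cluster 1 and 12.2% and 15.6% in cluster 2. They were 16.9% and 16.7% in cluster 4 and 34.8% and 34.2% in cluster 5. The intervals of the genotypes overlapped in each of these clusters after thinning, and in all but cluster 1 before it.

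The ratios between genotypes were also taken within each cluster. In cluster 2 the H2-Aa ratio was 2.19 (1.97 to 2.43), that of H2-Ab1 1.90 (1.71 to 2.11), that of H2-Eb1 2.16 (1.90 to 2.46) and that of Cd74 1.54 (1.47 to 1.62). H2-DMa was at 1.01 (0.886 to 1.15) and H2-DMb1 at 1.18 (0.991 to 1.41), and with cells thinned to 1000 UMIs H2-DMb1 passed 1.5-fold (log2 ratio 0.69) while Cd74 did not (0.52). The difference between genes was not tested. In cluster 1 the H2-Aa ratio was 1.92 (1.25 to 2.999) on 31 and 82 UMIs and that of Cd74 was 1.83 (1.58 to 2.13). Those H2-Aa UMIs lay in 5 of 127 Fit2-WT cells and 20 of 134 Fit2-Mut cells. In Fit2-WT H2-Aa, H2-Ab1 and H2-Eb1 stood at 33.1, 41.6 and 38.4 CPM in cluster 1, below free RNA at 60.6, 54.1 and 46.7 CPM. In Fit2-Mut they stood at 63.4, 91.3 and 78.9 CPM, against 59.0, 66.4 and 59.0 CPM in free RNA. With cells thinned to 1000 UMIs, H2-Ab1 in cluster 1 no longer passed 1.5-fold (log2 ratio 0.51), and H2-Aa and H2-Eb1 had too few counts. In both clusters 4 of 6 members with enough counts were at least 1.5-fold higher, where 7.08% of all genes in cluster 1 and 7.16% in cluster 2 were; 6.37% and 4.42% were as much lower.

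Clusters 4 and 5 had no member past 1.5-fold in either direction as counted. Cluster 4 stood above cluster 2 in H2-Aa in Fit2-WT (512 against 274 CPM) and below it in Fit2-Mut (503 against 599 CPM). In cluster 5 the H2-Aa ratio was 1.005 (0.916 to 1.10), that of H2-Ab1 0.773 (0.699 to 0.855) and that of H2-Eb1 0.822 (0.727 to 0.930). In cluster 4 the H2-Aa ratio was 0.983 (0.868 to 1.11) and that of H2-DMb1 1.45 (1.14 to 1.85). Without the 10 cells per library with most surface chain UMIs, the log2 ratios of H2-Aa and Cd74 in cluster 4 were 1.56 and 0.61, both past 1.5-fold. With cells thinned to 1000 UMIs, H2-Eb1 passed 1.5-fold in both clusters, upward in cluster 4 (log2 ratio 0.60) and downward in cluster 5 (−0.76). Of all genes, 9.89% were called higher and 5.5% lower in cluster 4, and 7.48% and 8.39% in cluster 5. An unnamed cluster of 128 and 112 cells with 8 of 10 microglial markers and a median of 3998 and 3990 UMIs, left out of microglia-like cells, had 4 of 6 members at least 1.5-fold higher (11% of genes; 7.07% were lower). With cells weighted equally 0 of these 4 passed, with log2 ratios of 0.56 for H2-Aa, 0.34 for H2-Ab1, 0.18 for H2-Eb1 and 0.08 for Cd74. The median log2 ratios were 0.91, 0.78, 0.65, 0.10 and 0.02 in clusters 1, 2, the unnamed one, 4 and 5. The difference between clusters was not tested.

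**Figure D2:**
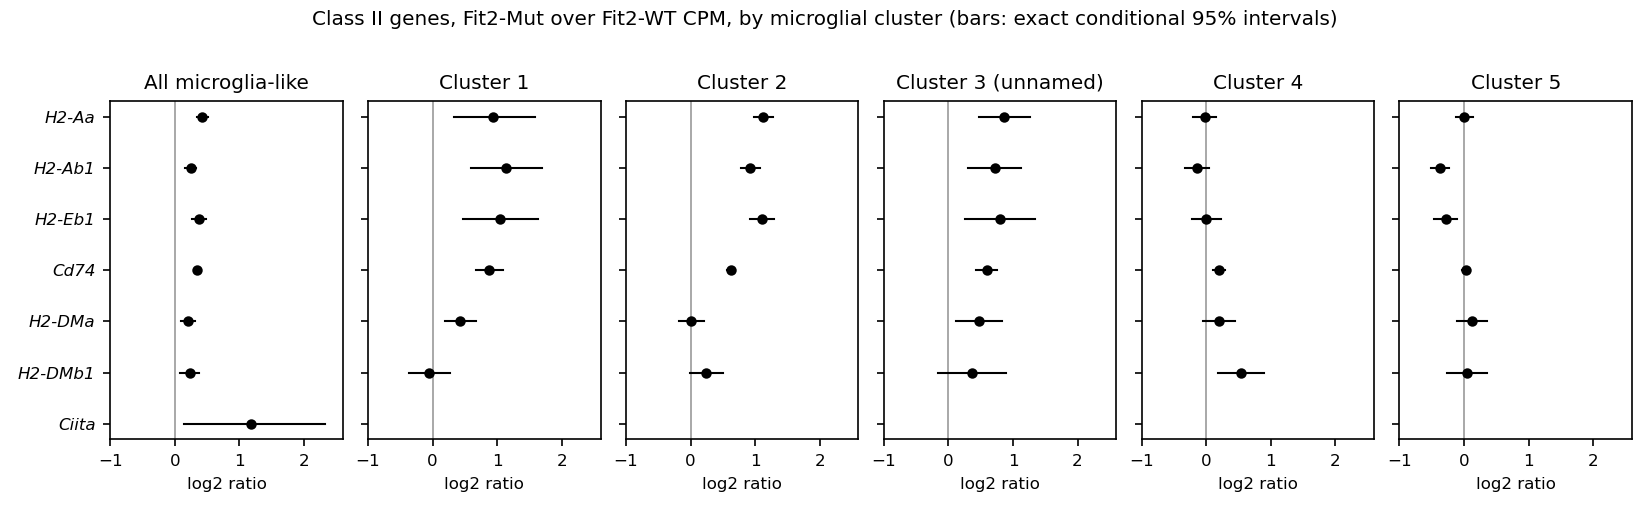
Log2 ratio of CPM (Fit2-Mut over Fit2-WT) for each class II gene in all microglia-like cells and in 5 clusters, with bars for exact conditional 95% intervals; genes under 20 UMIs and the small cluster 14 are not drawn. The surface chains and Cd74 lie to the right of 0 in clusters 1, 2 and 3 and at or left of 0, apart from Cd74, in clusters 4 and 5.

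Single cells were uneven. After thinning to 5000 UMIs, which left 376 Fit2-WT and 406 Fit2-Mut microglia-like cells, 233 (61.97%) and 236 (58.1%) had no UMI of H2-Aa, H2-Ab1 or H2-Eb1. All 3 genes were found in 67 cells (17.8%, 14.1 to 22.1) and 75 cells (18.5%, 14.8 to 22.6), so the share with all 3 was within counting error between the genotypes. Without thinning it was 21.8% and 24.8%. The 10 cells with most surface chain UMIs held 38.5% of them in Fit2-WT and 32.0% in Fit2-Mut, and the highest cell had 127 and 112. By cluster the share with all 3 was 4.21% and 6.48% in cluster 1, 17.5% and 22.9% in cluster 2, 18.3% and 20.3% in cluster 4 and 35.8% and 32.9% in cluster 5.

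The surface chains were found together. H2-Ab1 was found in 82.5% and 84.5% of cells with an H2-Aa UMI and in 14.7% and 17.6% of cells without one. H2-Eb1 was found in 72.2% and 69.8% of H2-Aa-positive cells against 3.94% and 3.79% of the others. Cd74 was found in 97.9% and 97.4% of H2-Aa-positive cells, and also in 43.7% and 47.6% of H2-Aa-negative cells. The contrast was small for the exchange factor, with H2-DMa in 72.2% and 77.6% of H2-Aa-positive cells against 57.7% and 61.7% of the rest. H2-DMb1 was found in 49.5% and 62.1% against 42.3% and 44.8%. Ciita was found in 2 of 97 and 5 of 116 H2-Aa-positive cells, and in 1 of 279 and 2 of 290 others.

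Cd74 counts climbed with the surface chains. Cells with 0 surface chain UMIs had a mean of 0.880 (Fit2-WT) and 1.06 (Fit2-Mut) Cd74 UMIs, and cells with 1 to 3 had 3.14 and 3.54. Cells with 4 to 9 had 10.9 and 12.9, and cells with 10 or more, 12.5% and 14.5% of all, had 46.5 and 45.1. H2-DMa and H2-DMb1 together went from a mean of 1.52 and 1.67 UMIs at 0 surface chain UMIs to 1.89 and 2.18 at 4 to 9, and to 3.66 and 3.49 at 10 or more. Across cells Spearman's rho between summed surface chain and Cd74 UMIs was 0.73 in both libraries (n = 376 and 406), and between surface chain and H2-DM UMIs 0.25 and 0.30. These cells share a library, its free RNA and a fixed depth.

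**Figure D3:**
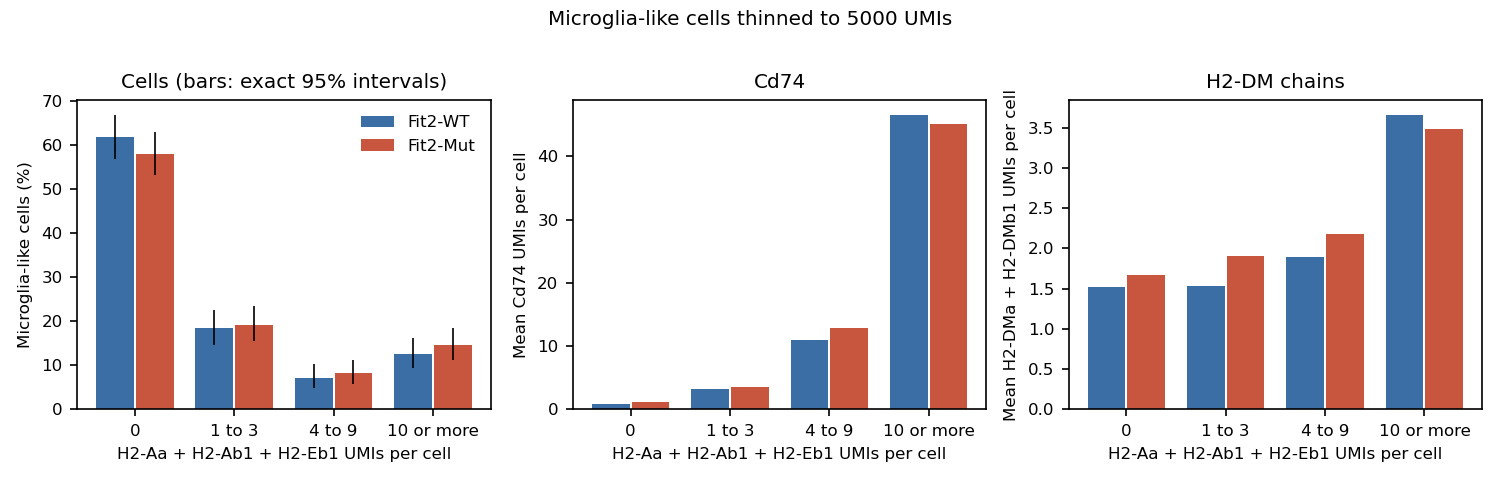
Microglia-like cells thinned to 5000 UMIs, grouped by summed H2-Aa, H2-Ab1 and H2-Eb1 UMIs: share of cells (%, bars for exact 95% intervals), mean Cd74 UMIs per cell and mean H2-DMa plus H2-DMb1 UMIs per cell, Fit2-WT in blue and Fit2-Mut in red. Mean Cd74 goes from about 1 UMI at 0 surface chain UMIs to 46.5 and 45.1 at 10 or more, while the H2-DM chains go from 1.52 and 1.67 to 3.66 and 3.49.

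Microglia-like cells with all 3 surface chains were set against those with none at the same 5000 UMIs, over 6432 genes outside the class II set, where the median ratio was 0.902 in Fit2-WT and 0.909 in Fit2-Mut. The counting interval lay above 1 in both libraries for 107 genes and below 1 for 194. Before thinning these cells had a median of 14153 UMIs against 10827 in Fit2-WT and 14902 against 11781 in Fit2-Mut. Clusters 2, 4 and 5 held most of the cells with all 3 chains.

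Genes of the disease-associated state of microglia were higher in cells with all 3 chains. Of 14 such genes, 12 had intervals above 1 in both libraries and 0 below, with a median ratio of 1.86 in Fit2-WT and 1.45 in Fit2-Mut. Spp1, which encodes osteopontin, had a mean of 12.9 against 2.95 UMIs per cell in Fit2-WT and 17.6 against 4.25 in Fit2-Mut (ratios 4.36 and 4.14). Itgax, which encodes CD11c, had ratios of 4.13 and 2.67, Gpnmb 3.57 and 2.28, Cst7 2.39 and 1.98 and the fatty acid binding protein gene Fabp5 2.30 and 2.63. Other genes among the 10 highest were Ctnna3 (5.07 and 7.24), Lrrtm3 (6.21 and 8.74), Il4i1 (5.93 and 3.02), Plau (2.59 and 2.43) and Adssl1 (2.73 and 2.55).

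Homeostatic genes were lower in the same cells. Of 11, 8 had intervals below 1 in both libraries and 0 above, with median ratios of 0.672 and 0.731. P2ry12, a nucleotide receptor of resting microglia, had 2.22 against 5.03 UMIs per cell in Fit2-WT and 2.80 against 4.78 in Fit2-Mut (0.442 and 0.585), and Tmem119 had ratios of 0.372 and 0.429. Of 8 class I genes 5 had intervals above 1 in both libraries and 0 below. H2-K1 was at 1.76 and 1.70, H2-D1 at 1.77 and 1.83 and H2-Q7 at 2.58 and 5.13. H2-Oa was at 2.57 and 2.37 and the checkpoint ligand gene Cd274 at 1.92 and 2.03.

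None of 12 interferon response genes and none of 6 class II promoter factors had an interval on one side of 1 in both libraries. Of 7 processing genes 3 were above and 2 below, with Ctsd at 1.34 and 1.22 and Lgmn at 0.669 and 0.733, and Ctss was at 1.01 and 1.05.

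Most of the 10 genes that were lowest in cells with all 3 chains were genes of the choroid plexus, the tissue that makes cerebrospinal fluid. Ttr, its transthyretin gene, had 16.1 against 67.2 UMIs per cell in Fit2-WT and 4.79 against 38.9 in Fit2-Mut (0.240 and 0.123), and Enpp2 had ratios of 0.220 and 0.264. The others were Fxyd1, Igfbp2, Ecrg4, Sostdc1, Hspa1a, Calml4, Cxcl10 and Folr1. Cells with none of the chains were shallower before thinning, at medians of 10827 and 11781 UMIs against 14153 and 14902. The part of free RNA in the counts of these genes was not tested. The summed cDC2 markers were at 28 against 13 UMIs in Fit2-Mut, a ratio of 6.78 (3.397 to 14.3), and at 3 against 9 in Fit2-WT, a ratio of 1.16 (0.202 to 4.64). Cells holding 2 or more UMIs of rare foreign immune markers were then left out. In both libraries 13 of 14 disease-associated genes then had intervals above 1 and 8 of 11 homeostatic genes had intervals below 1. Of 8 class I genes 5 had intervals above 1, and of 12 interferon response genes 0 had intervals on one side of 1 in both. The share over all genes was not counted in these cells.

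**Figure D4:**
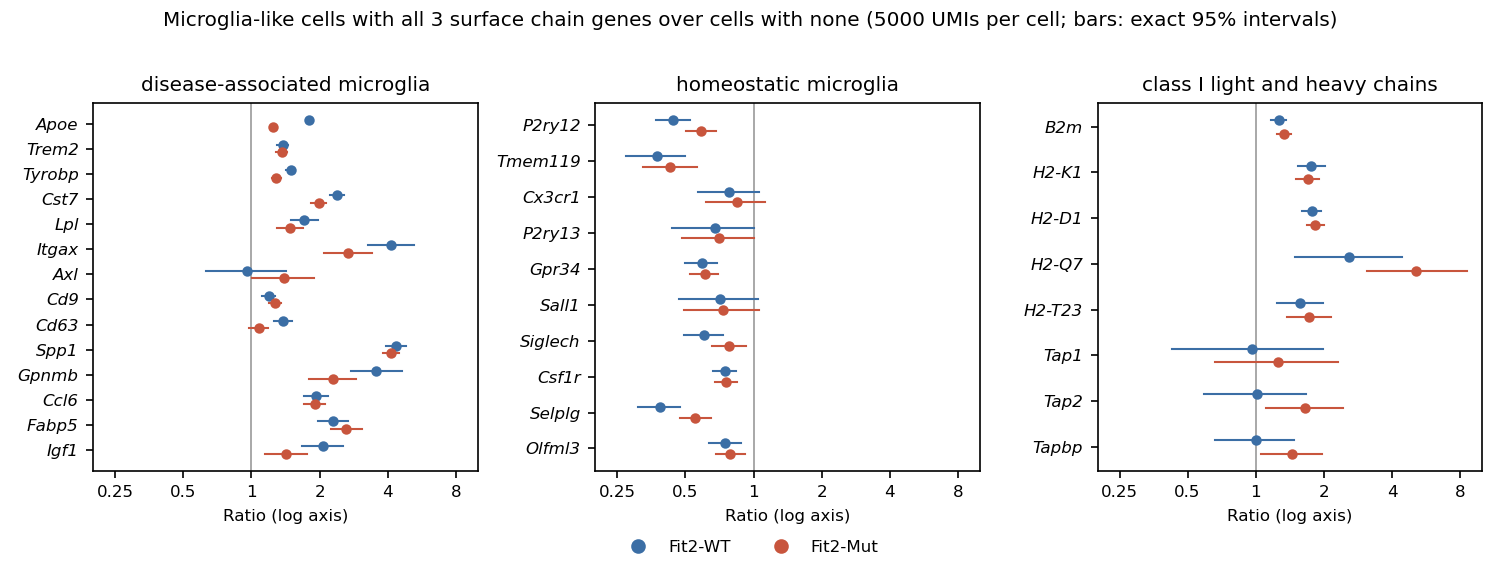
Ratio of mean UMIs (log axis) in microglia-like cells with all 3 surface chain genes over cells with none, at 5000 UMIs per cell, for disease-associated, homeostatic (10 of 11) and class I genes, Fit2-WT in blue and Fit2-Mut in red with exact 95% intervals. Disease-associated genes lie mostly right of 1, homeostatic genes left of 1, and H2-K1, H2-D1 and H2-Q7 right of 1.

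Outside microglia, B cell-like cells were the most even carriers of class II. Their summed surface chain UMIs had a median of 35 per cell in both libraries. H2-Aa stood at a ratio of 1.01 (0.904 to 1.13) between genotypes, H2-Ab1 at 0.970 (0.837 to 1.13), H2-Eb1 at 0.927 (0.823 to 1.04) and Cd74 at 0.897 (0.851 to 0.947). With a median log2 ratio of −0.11, 1 of 7 members passed 1.5-fold, H2-DMb1 at 1.55 (0.857 to 2.92), where 16.8% of genes were called higher and 9.57% lower. Dendritic-like cells, under the minimum of 20 cells in Fit2-Mut, are given as levels only, and their median was 222.5 and 310.0 surface chain UMIs per cell.

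Monocyte-like cells had lower class II counts in Fit2-Mut. H2-Aa had 282 UMIs in 69 Fit2-WT cells and 86 in 42 Fit2-Mut cells, a ratio of 0.510 (0.396 to 0.651). H2-Ab1 was at 0.358 (0.257 to 0.489), H2-Eb1, at 462 and 80.5 CPM, at 0.174 (0.104 to 0.277), and Cd74 at 0.487 (0.433 to 0.546). H2-DMb1 was at 0.659 (0.410 to 1.03), which makes 5 of 6 members at least 1.5-fold lower where 11.1% of genes were (12.5% were higher), and H2-DMa was at 1.24 (0.854 to 1.78). Few cells carried these counts: the 10 highest held 93.9% (Fit2-WT) and 100% (Fit2-Mut) of the surface chain UMIs, and 11 cells (15.9%, 8.24 to 26.7) and 4 cells (9.52%, 2.66 to 22.6) had 10 or more. The intervals of those shares overlapped.

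The 2 monocyte-like clusters were also read apart. Cluster 8 had Treml4 and Ear2 among its leading genes and 49 and 31 cells. Its H2-Aa count was 163 UMIs for Fit2-WT (676 CPM, 576 to 788) and 8 for Fit2-Mut (51.9 CPM, 22.4 to 102). In Fit2-WT the 5 highest cells for each gene held 89.0% of its H2-Aa, 91.5% of its H2-Ab1 and 95.2% of its H2-Eb1 UMIs. An H2-Aa UMI was found in 12 of 49 cells (24.5%, 13.3 to 38.9) and 2 of 31 (6.45%, 0.791 to 21.4). The intervals of these shares overlapped. In cluster 17, led by Chil3 and Plac8 with 20 and 11 cells, H2-Aa stood at 683 CPM (566 to 817) and 829 CPM (655 to 1034). H2-Ab1 was at 539 and 25.9 CPM in cluster 8 and at 568 (462 to 692) and 478 CPM (349 to 640) in cluster 17. H2-Eb1 was at 606 and 19.4 CPM in cluster 8 and at 264 (193 to 352) and 181 CPM (105 to 289) in cluster 17. Microglial markers in monocyte-like cells summed to 327 CPM in Fit2-WT and 2271 CPM in Fit2-Mut, with 2 and 0 of 10 at 0 UMIs, and their part in the result was not tested.

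Border-associated macrophage-like cells ranged from cells with no surface chain UMI to cells with 444 (Fit2-WT) and 456 (Fit2-Mut). The 10 cells with most surface chain UMIs held 99.1% and 96.3% of them. Between genotypes H2-Aa was at 0.846 (0.760 to 0.942) and H2-DMa at 1.02 (0.767 to 1.37), with 0 of 6 members past 1.5-fold and 14% of genes called higher and 11.9% lower. The median log2 ratio over these members was −0.21, and it turned to 1.45 without those 10 cells per library and to 2.66 when cells needed 2000 UMIs and 1000 genes, so no direction is given. The 12 and 14 cells with all 3 chains had less of Lyve1, a hyaluronan receptor gene, than the 11 and 9 cells with none, 0 against 507 CPM in Fit2-WT and 136 against 758 CPM in Fit2-Mut. Pf4 was at 1086 against 3315 CPM and 765 against 1987 CPM, and Ccr2, a chemokine receptor gene of monocytes, at 199.7 against 0 CPM and 73.2 against 0 CPM. The depth of the groups differed, with medians of 6101 against 7723 UMIs in Fit2-WT and 15696 against 6518 in Fit2-Mut.

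Fibroblast-like cells with all 3 chains, 7 in Fit2-WT and 14 in Fit2-Mut, had 0 UMIs of the leukocyte gene Ptprc and of the macrophage genes Mrc1 and Pf4. C1qa, another macrophage gene, had 1 and 4 UMIs in them, 12.2 against 5.09 CPM in cells with none in Fit2-WT and 17.4 against 0 CPM in Fit2-Mut. Their Col1a2, a collagen gene, stood at 732 CPM against 750.5 in cells with none, and at 886 against 898 CPM in Fit2-Mut. Their Dcn, which encodes decorin, was at 122 against 6037 CPM and 274 against 3295 CPM. Fibroblast-like cells joined a cluster led by Ccn3 and Prg4 (38 and 65 cells) with a cluster led by Lum and Dcn (22 and 16 cells). These clusters were not read apart. Between genotypes 2 of 6 members passed 1.5-fold, H2-Ab1 at 1.92 (1.22 to 3.12) and H2-DMa at 1.68 (0.940 to 3.14), where 13% of genes were called higher and 12.7% lower. Without the 10 cells per library with most surface chain UMIs the median log2 ratio over the members moved from 0.50 to 1.72.

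**Figure D5:**
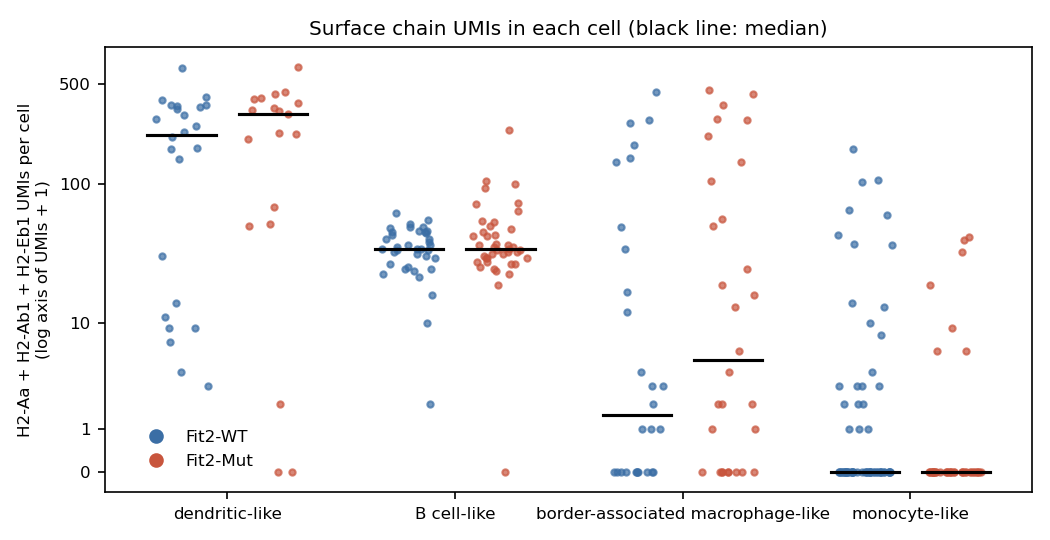
Summed H2-Aa, H2-Ab1 and H2-Eb1 UMIs in each cell (log axis of UMIs + 1) of 4 types, Fit2-WT in blue and Fit2-Mut in red, with black lines at the medians. B cell-like cells lie around a median of 35 in both libraries, dendritic-like cells mostly far above, and border-associated macrophage-like and monocyte-like cells spread from 0 to highs of 444 and 456 and of 177 and 42.

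Receptors of class II were read in the T cell-like cells. Cd4 had a UMI in 12.1% of these cells in Fit2-WT (7.09 to 18.9) and in 3.92% in Fit2-Mut (1.45 to 8.34), against 0.231% and 0.293% of endothelial-like cells, and Cd8a, the coreceptor of class I, in 56.1% and 65.4%. Unnamed clusters 11 and 20, with 10 and 9 T cell markers, are not among these cells, and Cd4 had a UMI in 7 of 39 and 5 of 22 cells of cluster 11 and in 1 of 11 and 0 of 6 of cluster 20. Ifng, the interferon gamma gene, was found in 32.6% and 39.2% of the T cell-like cells. Lag3, an inhibitory receptor that binds class II, had a UMI in 54.2% and 58.3% of the microglia-like cells (96.3 and 106 CPM) and in 0.231% and 0 of endothelial-like cells. Mif, a ligand of Cd74, stood at 553 and 475 CPM in microglia-like cells, a ratio of 0.858 (0.814 to 0.904).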

How the data were processed

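The authors deposited raw UMI counts per gene and barcode for all barcodes, 1 matrix per library. Per the submitters' processing notes they were made with Cell Ranger 7.0.0 on mm10, while the file headers name Cell Ranger 7.1.0. Kept barcodes had at least 1000 UMIs, 500 genes and at most 10% mitochondrial UMIs (5333 and 5979 barcodes, Fit2-WT first). Scrublet in Scanpy 1.11.5, at 0.8% expected doublets per 1000 cells, removed 123 (2.31%) and 159 (2.66%), which left 5210 and 5820 cells.

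Counts were clustered without class II genes (2000 variable genes, 30 principal components, 15 neighbours, Leiden at resolution 1 with leidenalg 0.10.2, all cells and then immune cells). A cluster was named when at least 3 markers and 50% of a list were at least 2-fold higher and in 10% of its cells. It stayed unnamed if its 10 genes of highest fold held more markers of another type than of its own. The same held if they had none of its own and depth was low. This left unnamed a cluster of 552 cells with 9 astrocyte markers, and unnamed immune clusters 3 and 11. Clusters that also had 70% of a second lineage's markers were set apart as mixed. Microglia, border-associated macrophages, monocytes and dendritic cells counted as 1 lineage. The rule for mixed clusters and an exemption for Siglech were set after the clusters had been seen, as was the list of motif letters. UMIs were summed per library and type, with exact Poisson, conditional and Clopper-Pearson intervals at 95%. Genes needed 20 UMIs over both libraries for a ratio, types 20 cells per library, and a gene was called at 1.5-fold. Microglial cells were thinned to 5000 or 1000 UMIs for shares. The 7 members and the listed genes with most counts or past 1.5-fold are named, and otherwise the genes with the largest lower bound of the ratio, in both libraries, or the highest correlation across types, with at least 50 UMIs. The ratio intervals were checked on simulated independent Poisson counts only. Those counts lack the uneven spread of UMIs over cells, so the check does not bear on that limit.

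The members, gene lists and comparisons were chosen with earlier results of these data known. Alternatives changed the cell filters, doublet removal, clustering, naming, depth, weighting and single cells. Values of some listed genes are not reported here.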

Additional observations from a re-analysis of the deposited data

Results flagged for a closer look

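In the Fit2-Mut library, 98 barcodes (1.68%, 1.37 to 2.05) fell in clusters that carried microglial markers together with those of another immune lineage, against 21 (0.403%, 0.2497 to 0.615) in Fit2-WT, and the comparisons of named types do not use them. They held 1145 H2-Aa UMIs in Fit2-Mut (630 CPM, 594 to 667) and 10 in Fit2-WT (31.4 CPM, 15.1 to 57.8). Of the Fit2-Mut UMIs, 511 lay in the cluster with B cell markers and 504 in that with T cell and cell cycle markers. In the latter, the 5 highest cells held 89.1% of its H2-Aa UMIs. The median depth of all these barcodes was 17125.5 and 14790 UMIs, above the 12564.5 and 11134.5 of microglia-like cells. By cluster, 33 and 6 held T cell markers, 27 and 9 T cell and cell cycle markers, 18 and 6 neutrophil markers and 20 and 0 B cell markers (Fit2-Mut and Fit2-WT). The 20 barcodes with B cell markers all had H2-Aa, at 1237 CPM.

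The class II genes stood higher in Fit2-Mut in microglia-like cells, with a median log2 ratio of 0.34, and lower in monocyte-like cells, with −1.01. The difference between these types was not tested, since each genotype has 1 library.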

How the results depend on the processing

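The median log2 ratio in microglia-like cells was above 0 under all 17 alternatives, from 0.16 to 0.45. It was 0.16 with at least 2000 UMIs and 1000 genes, 0.20 with class II genes kept in the clustering, 0.23 with types named by marker share per cell, 0.40 with cells weighted equally, 0.41 with cells thinned to 1000 UMIs and 0.44 without the 10 cells with most surface chain UMIs. Alternatives chosen after seeing the data gave 0.45 with the mixed clusters counted as microglia and 0.19 without cells holding rare foreign immune markers; counting the unnamed cluster 3, and the values per cluster, were also added then. In clusters 1, 2, 4 and 5 the median without the 10 highest cells was 1.93, 0.82, 0.35 and 0.12. In border-associated macrophage-like cells the median of −0.21 reversed to 2.66 at 2000 UMIs, 2.64 with class II genes kept, 0.52 by marker share and 1.45 without the 10 highest cells, and was −0.51 weighted equally and −0.49 thinned. In monocyte-like cells it was −0.50 by marker share and −1.35 thinned, and in fibroblast-like cells 1.72 without the 10 highest cells. B cell-like cells stayed between −0.16 and −0.02 in 14 alternatives, and choroid plexus-like cells between −0.62 and 0.25. The share with all 3 chains was 4.93% and 6.70% at 1000 UMIs, and in Fit2-Mut 22.96% by marker share and 24.8% unthinned. The summed surface chain level (mean of both libraries) in microglia-like cells, 1087 CPM, was 1057 with doublets kept, 1047 with class II genes kept, 1293 by marker share and 1021 with cluster 3; in dendritic-like cells, 23207 CPM, it was 24688 at 5% mitochondrial UMIs, 17990.2 at 2000 UMIs, 22562 with class II genes kept and 27385 by marker share. The cause was not tested.

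A planned filter on 56 other immune markers left 14 and 17 microglia-like cells and gave no value, and neither did monocyte-like cells without the 10 highest, choroid plexus-like cells thinned or with free RNA subtracted, fibroblast-like cells thinned and dendritic-like cells at resolution 0.5. No paired analysis was possible because each genotype has 1 library with no replicate number.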
